A study of Mus musculus with 10 samples.

Results

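The simple keratins Krt7, Krt8, Krt18 and Krt19 and the basal or stratified keratins Krt5, Krt14, Krt15, Krt17 and Krt6a were followed across 10 mouse tumors measured on 2-color Agilent arrays. The members were the probes other than control spots whose gene name in the scanner files was 1 of these 9 genes, and 11 probes were found among the 40196 probes of the deposited table, which named 19272 genes. Krt7 and Krt8 had 2 probes each and the other genes 1 each, and every probe had a value in all 10 tumors. The brighter probe stood for Krt7 and for Krt8 where 1 value per gene was needed.

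Keratins are the intermediate filament proteins of epithelial cells, and each filament pairs an acidic type I keratin with a basic type II keratin. Simple, single-layered epithelia such as the luminal cells of the mammary gland are built on Krt8 with Krt18, joined by Krt7 and Krt19. The basal layer of stratified epithelia and the myoepithelial or basal cells of the mammary gland use Krt5 with Krt14, and Krt15 and Krt17 belong to the same layer, whereas Krt6a is known from wounded and hyperproliferative epidermis. Pathologists use the 2 sets to tell luminal from basal carcinoma and to recognize carcinoma in spindle cell tumors.

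The 5 adenocarcinomas (tumors 105, 131, 470, 17 and 85) were primary mammary tumors of mice that carry MMTV-Cre with the alleles Pik3ca H1047R and Trp53 R270H. The sarcomatoid, or spindle cell, group also held 5 tumors but 3 origins. A primary tumor of the same genotype and a lung tumor grown from its cell line by tail vein injection formed a pair. A primary tumor with MMTV-Cre, Pik3ca H1047R and a spontaneous Trp53 R245H mutation formed another, with a lung tumor made in the same way. These pairs carry the tumor numbers 323 and 307, and the labels do not say which number belongs to which genotype. The fifth was a primary tumor with MMTV-Cre and Trp53 R270H alone, which must be tumor 594, the sarcomatoid tumor without a lung partner. MMTV-Cre expresses Cre recombinase from a viral promoter that is active in mammary epithelium, the mice had a C57BL/6 background, and ages are not given in the sources used here. The labels call tumor 594 a sarcomatoid carcinoma and the other 4 sarcomatoid adenocarcinomas.

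Each value is a log2 ratio of 2 dyes on 1 array. According to the labels the tumor RNA carried the green dye, Cy3. The data were read the other way, because green signals varied less between arrays (mean SD 0.737 against 0.975 in red, log2 signal). Each deposited column correlated best with the red over green ratio of its own array (r 0.869 to 0.926, at most 0.744 with another array). That correlation shows how the ratio was formed and not which dye the tumor carried, so the direction rests on the spread. Ratios below are therefore tumor (red) over reference (green), a direction that is likely but against the label, and if the label is right every sign turns. The reference was taken as the same on all arrays, which was not tested. A ratio of 0 means the level of the reference, so ratios compare 1 gene between tumors and not the levels of different genes. The share of probes well above background in red was 52.3% to 83.1% per array. Scan protocol 1 held tumor 323, scan protocol 2 held tumors 307, 594, 105 and 470, and scan protocol 3 held both lung tumors with tumors 131, 17 and 85. All arrays are from whole tumors, in which fewer cells of a type and less RNA per cell cannot be told apart. Tumor 470, labelled an adenocarcinoma, stood with the lung sarcomatoid tumors in its simple keratins, so group results are given with and without it. It was singled out after its values had been seen.

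In the mouse genome (RefSeq, GRCm38.p6) Krt7, Krt8, Krt5 and Krt6a, all type II, lie on chromosome 15, and the type I genes Krt14, Krt15, Krt17 and Krt19 on chromosome 11. The type II genes run in the order Krt7 (chr15:101412403-101427806), Krt6a (chr15:101689928-101694305), Krt5 (chr15:101707069-101712905) and Krt8 (chr15:101996711-102004342). The type I genes run from Krt15 (chr11:100131759-100135949) and Krt19 (chr11:100140810-100145926) to Krt14 (chr11:100203162-100207510) and Krt17 (chr11:100256215-100261029), so simple and basal members stand among each other in both clusters. Krt18 is the exception, a type I gene on chromosome 15 (chr15:102028216-102032026). Its start lies 23.9 kb from that of its partner Krt8, on the opposite strand, with 2 other genes listed between them. Promoter sequence was at hand for 5 of the 9 genes, and the window of Krt14 does not lie at the outer end of its gene, so 4 are shown. Each is the 250 bases before the RefSeq start, 5′ to 3′ on the gene's strand. Krt8 and Krt18 are shown because they had nearly the same pattern over the tumors, Krt7 as another simple keratin and Krt5 as the basal comparison. Capitals mark GGGCGG, the letters of a GC box, and ATAAAAG, each on either strand. ATAAAAG was chosen after the sequences had been seen.
Krt8, chr15:102004343-102004592, minus strand: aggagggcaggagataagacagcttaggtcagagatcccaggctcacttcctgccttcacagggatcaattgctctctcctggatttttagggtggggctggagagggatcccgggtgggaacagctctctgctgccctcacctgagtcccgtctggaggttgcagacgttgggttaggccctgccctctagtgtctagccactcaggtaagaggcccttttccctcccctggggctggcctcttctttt
Krt18, chr15:102027966-102028215, plus strand: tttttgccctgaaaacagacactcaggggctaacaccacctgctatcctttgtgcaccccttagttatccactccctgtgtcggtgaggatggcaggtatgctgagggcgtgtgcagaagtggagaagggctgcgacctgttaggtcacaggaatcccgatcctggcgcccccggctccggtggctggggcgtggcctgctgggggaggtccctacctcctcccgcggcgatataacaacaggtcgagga
Krt7, chr15:101412153-101412402, plus strand: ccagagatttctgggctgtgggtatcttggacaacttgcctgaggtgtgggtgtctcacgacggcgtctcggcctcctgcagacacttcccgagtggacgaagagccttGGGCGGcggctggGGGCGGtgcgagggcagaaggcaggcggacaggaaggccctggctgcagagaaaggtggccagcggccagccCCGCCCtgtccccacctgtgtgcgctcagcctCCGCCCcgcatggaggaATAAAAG
Krt5, chr15:101712906-101713155, minus strand: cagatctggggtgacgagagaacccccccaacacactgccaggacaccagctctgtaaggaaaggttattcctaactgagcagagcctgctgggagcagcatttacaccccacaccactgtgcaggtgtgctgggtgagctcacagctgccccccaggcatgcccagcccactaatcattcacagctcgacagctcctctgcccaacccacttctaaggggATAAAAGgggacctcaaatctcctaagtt

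The Krt7 window held 4 GC boxes, and those of Krt8, Krt18 and Krt5 held none. A GC box stood in 32.7% of the 32851 promoter windows of this length. ATAAAAG was found in Krt7 and, 29 bases before the start, in Krt5, and in 4.83% of all windows. No window of the 4 held TATAAA (12.4% of all windows). GCCNNNGGC, the palindrome bound by AP-2 factors, was present in the windows of Krt7 and Krt18 and in 13.7% of all, and in Krt7 1 of its 2 copies overlaps a GC box. Krt8 and Krt18 thus shared none of these 4 sets of letters.

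The partners Krt8 and Krt18 separated the tumors most widely. Krt18, the type I keratin of simple epithelia, had ratios of -0.58 (tumor 323), -1.24 (307) and -2.02 (594) in mammary sarcomatoid tumors and -4.03 (323 lung) and -5.02 (307 lung) at the lung site. The adenocarcinomas had 1.21 (105), 2.04 (131), 1.89 (17), 2.78 (85) and -4.22 (470). All sarcomatoid tumors were thus below the reference and 4 of 5 adenocarcinomas above it, and the groups overlapped through tumor 470 alone. Krt8 (probe A_51_P242399) stood at -0.67 (323), -0.61 (307), -1.32 (594), -4.99 (323 lung) and -5.22 (307 lung) against 1.10 (105), 1.67 (131), 2.33 (17), 1.85 (85) and -4.58 (470). Its other probe, A_51_P242400, ran from -4.09 (307 lung) to -0.69 (307) in sarcomatoid tumors and from -4.08 (470) to 2.07 (17) in adenocarcinomas. In every tumor the ratios of the partners lay close together, with Krt8 minus Krt18 between -0.96 (323 lung) and 0.70 (594), a mean of -0.13 ± 0.58 (SD, n = 10).

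Krt7 and Krt19 gave the same split less evenly. Krt7, a type II keratin of ducts and glands, was above the reference in the mammary sarcomatoid tumors, at 1.38 (323), 1.29 (307) and 0.64 (594), and below it at -2.04 (323 lung) and -0.67 (307 lung). The adenocarcinomas had Krt7 ratios of 3.03 (105), 1.91 (131), 3.18 (17), 2.95 (85) and -1.63 (470) by probe A_51_P312348. The second probe, A_52_P410685, had the same order of groups with a wider span, from -2.41 (323 lung) to 1.45 (323) and from -1.86 (470) to 4.22 (17). Krt19, the smallest keratin, had ratios of -3.76 (323), -1.87 (307), -0.67 (594), -4.08 (323 lung) and -4.59 (307 lung) in sarcomatoid tumors. The adenocarcinomas stood at 0.62 (105), -0.66 (131), 0.85 (17), -0.50 (85) and -3.56 (470). Tumor 594 (-0.67) and adenocarcinoma 131 (-0.66) were next to each other, so that without tumor 470 the groups nearly touched for Krt19.

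**Figure D1:**
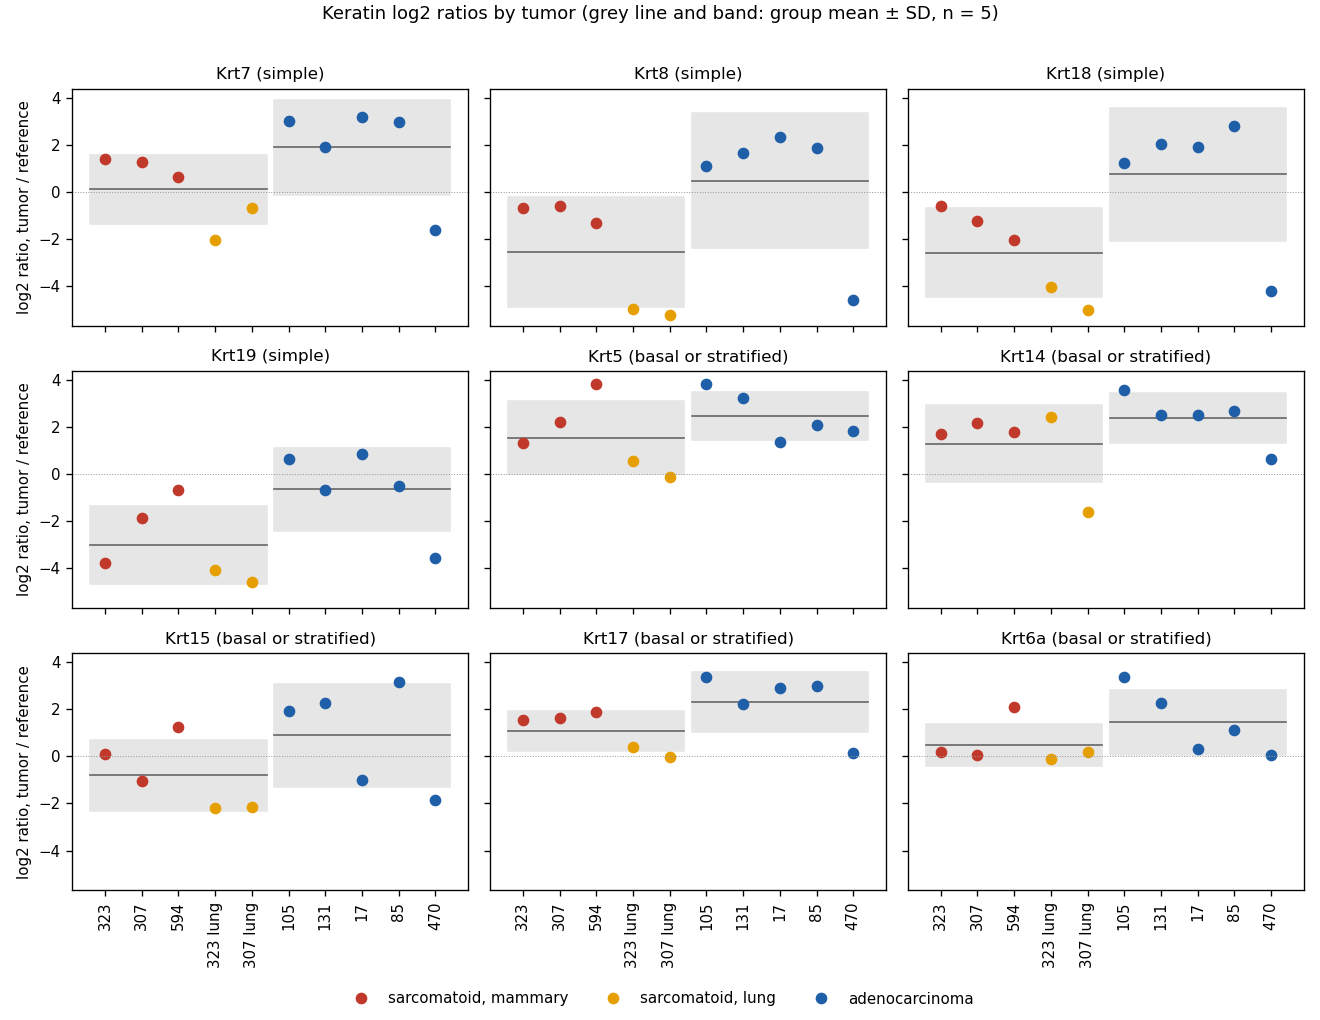
Log2 ratio of tumor over reference (y axis) for the 9 keratins in each of 10 tumors (x axis), with red points for mammary sarcomatoid tumors, orange for lung sarcomatoid tumors and blue for adenocarcinomas, and a grey line and band for the mean ± SD of each group (n = 5). Tumor 470 falls with the lung tumors for Krt8 (-4.58) and Krt18 (-4.22), and the bands of both groups overlap for all 9 keratins.

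The basal pair Krt5 and Krt14 stayed above the reference in most tumors of both groups. Krt5, the type II keratin of basal cells, was at 1.32 (323), 2.20 (307), 3.81 (594), 0.54 (323 lung) and -0.14 (307 lung) in sarcomatoid tumors and at 3.83 (105), 3.22 (131), 1.38 (17), 2.07 (85) and 1.84 (470) in adenocarcinomas. Sarcomatoid tumor 594 thus lay next to the highest adenocarcinoma. Krt14, the type I partner of Krt5, had ratios of 1.68 (323), 2.17 (307), 1.78 (594), 2.42 (323 lung) and -1.60 (307 lung), against 3.55 (105), 2.51 (131), 2.53 (17), 2.67 (85) and 0.63 (470). Tumor 307 lung was the only 1 of the 10 tumors with Krt14 below the reference. Unlike Krt8 and Krt18, these partners did not lie close together, since Krt5 minus Krt14 ran from -1.88 (323 lung) to 2.03 (594), with a mean of 0.17 ± 1.22 (SD, n = 10). On array 307 lung the Krt5 probe was not well above background in red, so its value there is a dim one. In green the Krt5 probe was well above background on 8 of 10 arrays.

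Krt17, a keratin of basal cells and skin appendages, was at 1.52 (323), 1.61 (307), 1.88 (594), 0.38 (323 lung) and -0.05 (307 lung) in sarcomatoid tumors and at 3.35 (105), 2.21 (131), 2.88 (17), 2.97 (85) and 0.13 (470) in adenocarcinomas. Of the basal keratins it split the tumors most like a simple keratin, with the lung tumors and tumor 470 lowest. Krt15, a type I keratin of the basal layer, was at 0.10 (323), -1.07 (307), 1.25 (594), -2.19 (323 lung) and -2.16 (307 lung) against 1.91 (105), 2.25 (131), -1.01 (17), 3.15 (85) and -1.86 (470). Adenocarcinoma 17, which had high Krt7 and Krt8, was low for Krt15. Krt6a had ratios of 0.18 (323), 0.06 (307), 2.08 (594), -0.11 (323 lung) and 0.19 (307 lung) against 3.39 (105), 2.27 (131), 0.32 (17), 1.13 (85) and 0.06 (470). Its probe was well above background in red on 6 of 10 arrays, 3 in each group, and in green on 3 of 10. In red it was not so on the arrays of both lung tumors or of tumors 17 and 85. A ratio near 0 has no level behind it there. Krt6a has a near-identical neighbor in Krt6b, and Krt14 and Krt17 have one in Krt16, so part of a probe's signal can come from the neighbor.

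Between sarcomatoid carcinoma and adenocarcinoma, the comparison the study was designed for, all 11 keratin probes had the lower mean in sarcomatoid tumors, and none passed limma's test at an adjusted p below 0.05. The largest mean difference was that of Krt18, at -2.58 ± 1.88 (SD, n = 5) in sarcomatoid tumors and 0.74 ± 2.83 (SD, n = 5) in adenocarcinomas, or -3.32 (SE 1.26, limma adjusted p 0.463), a 9.98-fold lower mean. Krt8 differed by -3.04 (SE 1.37, limma adjusted p 0.535) and by -2.67 (SE 1.15, limma adjusted p 0.510) with its other probe. Krt19 differed by -2.34 (limma adjusted p 0.468), and Krt7 by -1.77 and -2.47 (limma adjusted p 0.593 and 0.539). The basal keratins had smaller mean differences in these ratios, namely -0.92 for Krt5, -1.09 for Krt14, -1.70 for Krt15, -1.24 for Krt17 and -0.95 for Krt6a. Their limma adjusted p was 0.558 to 0.737. In red alone, given below, simple and basal keratins differed between the groups by similar amounts. Of all 40196 probes 0% passed (smallest adjusted p 0.330). By the unadjusted p 9.23% were below 0.05, of which 4.25% of all probes had the lower mean in sarcomatoid tumors. Of the keratin probes 5 of the 6 simple and 0 of the 5 basal reached that unadjusted level by limma. The count of simple probes fell to 2 with scanner ratios after loess and to 1, Krt18, with the slide as a block or 1 value per tumor number. It was 0 in mammary tumors alone and without tumor 323 lung, 307 lung or 17. A difference below -1 was found for 9 keratin probes and for 4.36% of all. The 2 groups overlapped for each of the 11 probes, while 0.468% of all probes lay wholly lower in sarcomatoid tumors. By the exact permutation test over tumors, two-sided and not adjusted, p was 0.0714 for Krt18 and 0.0556 for Krt19, and 0.103 to 0.310 for the other probes. With 1 value per tumor number (3 against 5) these exact permutation p-values were 0.143 to 0.536.

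Without adenocarcinoma 470, 3 of the 6 simple probes passed and 0 of the 5 basal probes did, where 0.692% of all probes passed with the lower mean in sarcomatoid tumors. Krt18 then fell by 4.56 on the log2 scale (SE 0.82, limma adjusted p 0.0286, 23.6-fold lower), with sarcomatoid tumors at -5.02 to -0.58 and adenocarcinomas at 1.21 to 2.78. Krt8 passed with probe A_51_P242400 (-3.80, SE 0.74, limma adjusted p 0.0342) and not with A_51_P242399 (-4.30, SE 0.98, limma adjusted p 0.0576). Krt7 passed with A_52_P410685 (-3.56, SE 0.74, limma adjusted p 0.0438) and not with A_51_P312348 (-2.65, SE 0.66, limma adjusted p 0.0749). Krt19 (-3.07) and Krt17 (-1.79) both missed the threshold at a limma adjusted p of 0.0714. Krt15 (-2.39), Krt14 (-1.52), Krt6a (-1.30) and Krt5 (-1.08) had limma adjusted p from 0.247 to 0.587. Apart from tumor 470 the groups did not overlap for all 6 simple probes and for Krt14 and Krt17, where 2.93% of all probes lay wholly lower. With scanner ratios after loess they did overlap for Krt19 and Krt14. Krt19 was then at -0.53 in sarcomatoid tumor 594 and -0.63 in adenocarcinoma 131. Krt14 was at 2.31 in tumor 323 lung and 2.27 in adenocarcinoma 17. The p-values without tumor 470, here and in the gene lists below, follow from leaving out a tumor singled out by its keratin values. They also treat the 5 sarcomatoid arrays as independent, although the lung tumors were grown from cell lines of tumors 323 and 307. With 1 value per tumor number (3 against 4), both Krt7 probes, both Krt8 probes and Krt18 passed (limma adjusted p 0.00585 to 0.0241), and Krt19 and the basal probes did not (limma adjusted p 0.0897 to 0.782). With the tumor number as a random block 4 simple and 0 basal probes passed, and with a term for the scan protocol all 6 simple probes and Krt17 (limma adjusted p 0.0265) did.

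**Figure D2:**
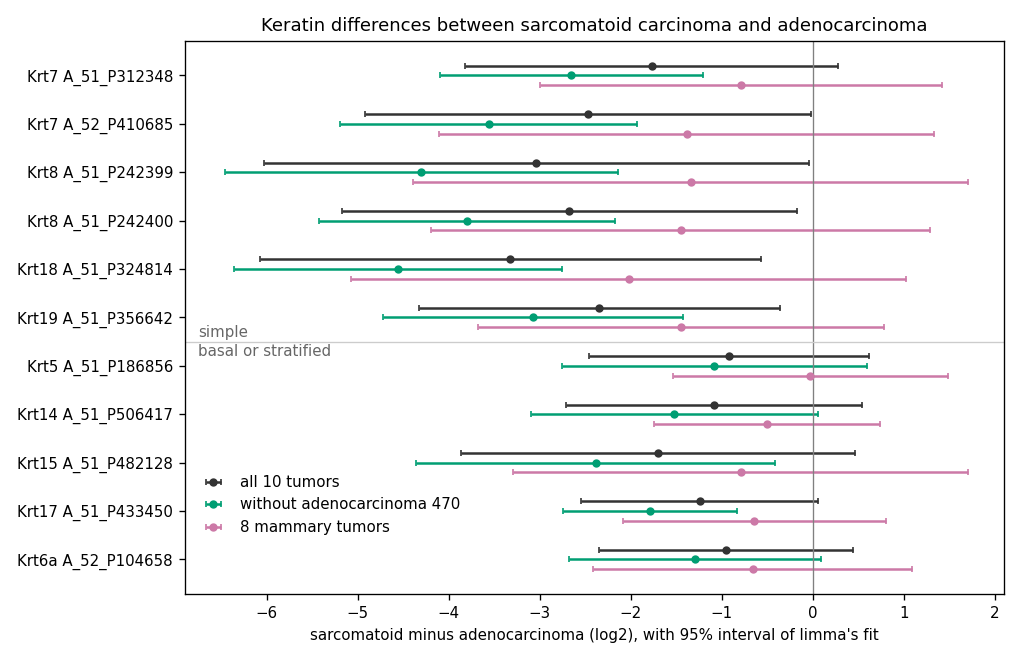
Difference of sarcomatoid minus adenocarcinoma means in log2 (x axis, with the 95% interval of limma's fit) for each keratin probe (y axis), over all 10 tumors (black), without adenocarcinoma 470 (green) and in the 8 mammary tumors (pink). Every point lies below 0, and for Krt18 it moves from -3.32 to -4.56 without tumor 470 and to -2.02 in mammary tumors.

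The size of the differences depended on which tumors were set against each other. In the 8 mammary tumors alone the differences were -0.79 and -1.38 for Krt7, -1.34 and -1.45 for Krt8, -2.02 for Krt18, -1.45 for Krt19 and -0.03 to -0.79 for the basal keratins, with limma adjusted p from 0.659 to 0.991. Leaving out tumor 470 as well gave -3.26 for Krt18 and -0.18 for Krt5. Scan protocol 3, in which the sarcomatoid tumors are the 2 lung tumors, held differences of -6.76 for Krt18 and -7.06 for Krt8. Within scan protocol 2, where tumor 470 is 1 of 2 adenocarcinomas, Krt18 differed by -0.13 and Krt8 by 0.78, and with tumor 105 as the only adenocarcinoma by -2.84 and -2.07. Scan protocol 1 holds 1 tumor and gives no difference. With the scan protocol as a term in limma's fit, Krt18 differed by -3.75 (adjusted p 0.494).

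Setting the 2 classes side by side, the simple keratins had a mean log2 ratio of -0.90 (323), -0.61 (307) and -0.84 (594) in mammary sarcomatoid tumors, -3.79 (323 lung) and -3.88 (307 lung) in lung tumors, and 1.49 (105), 1.24 (131), 2.06 (17), 1.77 (85) and -3.50 (470) in adenocarcinomas. The basal keratins had means of 0.96 (323), 0.99 (307), 2.16 (594), 0.21 (323 lung) and -0.75 (307 lung) against 3.21 (105), 2.49 (131), 1.22 (17), 2.40 (85) and 0.16 (470). The 3 mammary sarcomatoid tumors lay close together in the simple mean, at -0.79 ± 0.16 (SD, n = 3). Simple minus basal was -2.72 ± 0.98 (SD, n = 5) in sarcomatoid tumors and -1.28 ± 1.64 (SD, n = 5) in adenocarcinomas, so that the difference of -1.44 between the groups was smaller than the SD of the adenocarcinomas. Without tumor 470 the adenocarcinomas were at -0.69 ± 1.11 (SD, n = 4) and the difference was -2.03. No test was made of the difference between the classes. That difference was seen in the ratios and hardly in red alone, as given below.

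**Figure D3:**
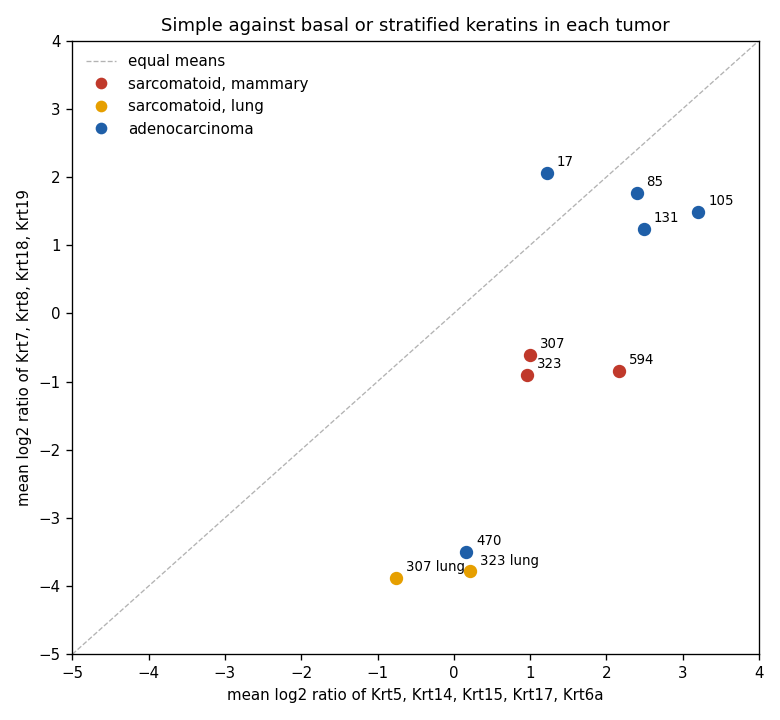
Mean log2 ratio of the 4 simple keratins (y axis) against that of the 5 basal or stratified keratins (x axis), 1 point per tumor, colored by group and site, with a dashed line where both means are equal, which is no comparison of levels since the genes differ. Tumor 470 (simple -3.50, basal 0.16) lies beside tumor 323 lung (-3.79, 0.21), apart from the other adenocarcinomas (simple 1.24 to 2.06).

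Behind these ratios stand the signals of both channels. For Krt18 the red signal was 15.34 to 16.61 in mammary sarcomatoid tumors, 11.69 and 12.70 in the lung tumors, 17.33 to 18.03 in 4 adenocarcinomas and 13.33 in tumor 470 (log2 signal). Its green, or reference, signal was 16.57 to 17.68 on the arrays of the sarcomatoid tumors and of tumor 470, and 14.66 to 16.71 on the other adenocarcinoma arrays, so green was high mostly where red was low (r = -0.84 over 10 arrays after quantile normalization). For Krt8 this r was -0.74 and -0.87 by its 2 probes, for Krt19 it was -0.10, and for Krt7 it was 0.93 and 0.74. The 5 basal keratins had r from 0.89 to 0.96, and the median over all probes was 0.49. Krt7 thus stood with the basal keratins, or near them, and apart from the other simple ones. All arrays share the probe and, in part, a scan protocol, and these correlations are a description. That the arrays share a reference was assumed and not tested. The processed green signal ranged from 5.31 (307 lung) to 13.51 (105) for Krt5 and from 12.43 (85) to 14.003 (323) for Krt19. After quantile normalization between arrays, the SD of green over the 10 arrays was 2.04 for Krt5, exceeded by 0.249% of all probes, 2.42 for Krt6a (0.104%), 1.41 for Krt17 (2.31%) and 0.16 for Krt19 (74.1%). Tumor 105 had the highest red signal of Krt5 (17.28), Krt14 (17.15), Krt17 (16.58) and Krt6a (14.62) together with the highest green signal of each (13.51, 13.60, 13.14 and 11.36).

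In red alone, an alternative chosen after the data had been seen, Krt18 differed between the groups by -2.54, Krt8 by -2.52, Krt19 by -2.17, Krt7 by -2.43, Krt17 by -2.95, Krt6a by -2.54, Krt5 by -2.45, Krt15 by -2.43 and Krt14 by -1.88, with limma adjusted p from 0.494 to 0.705. The difference between simple and basal keratins was thus 0.04 in red, against -1.44 in the ratios, and in green alone it was 1.36. How the reference signal of the basal keratins came to vary was not tested.

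**Figure D4:**
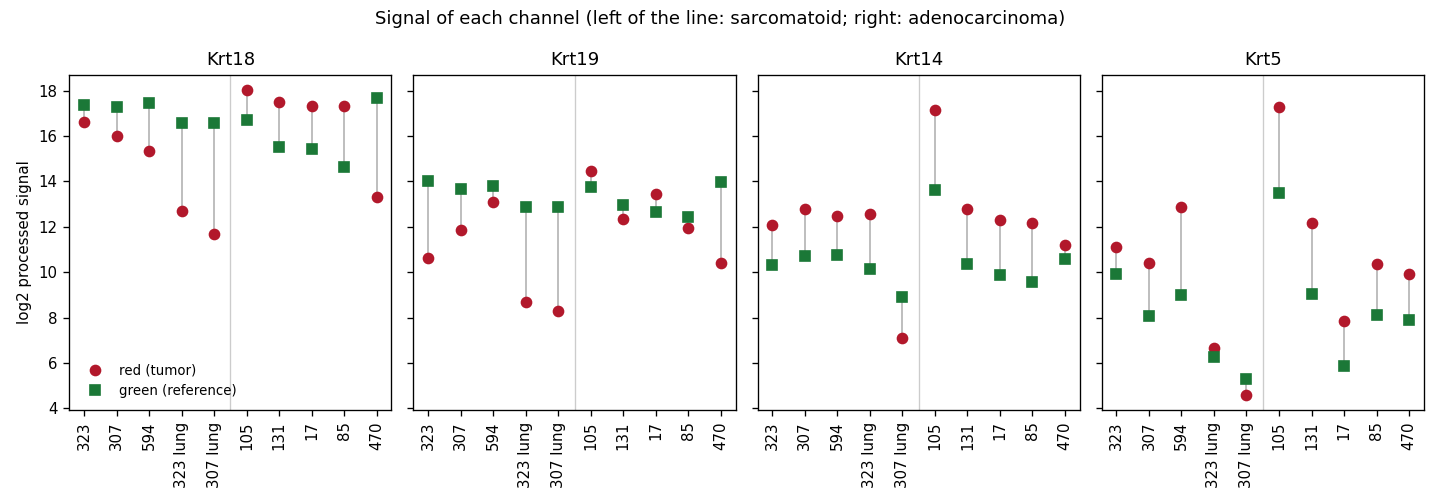
Processed log2 signal (y axis) of the red channel, read as tumor (circles), and of the green channel, read as reference (squares), for 2 simple keratins (Krt18, Krt19) and 2 basal keratins (Krt14, Krt5) on each array (x axis; sarcomatoid left of the grey line). Green spans 12.43 to 14.003 for Krt19 and follows red for Krt5, from 5.31 in tumor 307 lung to 13.51 in tumor 105.

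Lung sarcomatoid tumors were compared with mammary sarcomatoid tumors to see what differed at the site to which cells of the same origin had been transplanted. Simple keratins had lower means in the lung tumors, and no keratin probe passed limma's test. Krt8 stood at -5.11 ± 0.17 (SD, n = 2) in lung and -0.87 ± 0.40 (SD, n = 3) in mammary tumors, a difference of -4.24 (SE 1.62, limma adjusted p 0.405). Krt18 differed by -3.24 (SE 1.63, limma adjusted p 0.513), Krt7 by -2.46 (limma adjusted p 0.505) and Krt19 by -2.24 (limma adjusted p 0.534). For the basal keratins the differences were -2.24 for Krt5, -1.46 for Krt14, -2.27 for Krt15, -1.50 for Krt17 and -0.73 for Krt6a, with limma adjusted p from 0.388 to 0.826. In this fit 10 of all probes (0.0249%) passed. At the unadjusted level 5.1% had the lower mean in lung tumors, as did Krt8 (A_51_P242399) and Krt5 among the keratins. The lung values lay wholly below the mammary values for 9 of the 11 keratin probes and for 16.9% of all probes, and differences below -1 were found for 10 keratin probes and for 7.95% of all.

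Within the pairs, the lung tumor had lower ratios than the mammary tumor of its number for all simple keratins in both pairs. Lung minus mammary was -4.32 (323) and -4.62 (307) for Krt8 and -3.45 and -3.78 for Krt18, so the partners of the simple filament had nearly the same difference in both pairs. For Krt7 it was -3.42 (323) and -1.96 (307). Krt19 differed by -0.33 in pair 323, whose mammary tumor was already at -3.76, and by -2.72 in pair 307. Of the basal keratins, Krt15 differed by -2.29 and -1.09, Krt17 by -1.15 and -1.65, and Krt5 by -0.77 and -2.34. Krt14 had opposite signs, with 0.74 in pair 323 and -3.77 in pair 307. Krt6a was at -0.29 and 0.13 in the pairs and not well above background in either lung tumor. A difference below -1 in both pairs was found for 7 keratin probes and for 4.36% of all probes, and opposite signs for 2 keratin probes and for 38.7% of all. With the tumor number as a replicate block, over the 4 paired arrays, Krt8 differed by -4.47 (SE 0.42, limma adjusted p 0.0895) and Krt18 by -3.61 (SE 0.42, limma adjusted p 0.0994), and 0 probes passed. Adenocarcinoma 470 adds only to the estimate of the spread. Leaving it out gave a limma adjusted p of 0.00941 for Krt8 by probe A_51_P242399 and 0.0282 by A_51_P242400, with 84 probes passing in all. That tumor was singled out by its keratin values, so the smaller p for Krt8 follows from the choice. Over the sarcomatoid arrays alone the limma adjusted p of A_51_P242399 was 0.0630. Both lung tumors were in scan protocol 3 and no mammary sarcomatoid tumor was. A term for the scan protocol can therefore be set only through the adenocarcinomas, 2 in protocol 2 and 3 in protocol 3. With that term the difference was -7.83 for Krt8 (limma adjusted p 0.526), -6.63 for Krt18 (limma adjusted p 0.570) and -4.30 for Krt7 (limma adjusted p 0.743). These values rested on tumor 470, and without it they were -4.99, -3.92 and -1.97 (limma adjusted p 0.236 for Krt8 and 0.406 for Krt18).

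**Figure D5:**
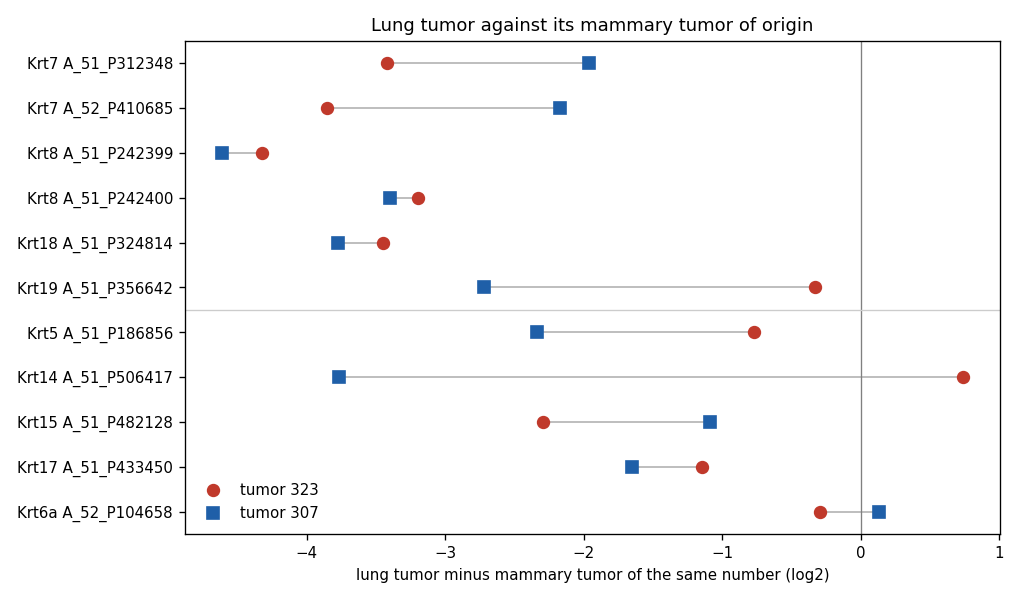
Log2 ratio of the lung tumor minus that of the mammary tumor of the same number (x axis) for each keratin probe (y axis; simple above the grey line), with circles for pair 323 and squares for pair 307. Krt8 and Krt18 lie at -3.20 to -4.62 in both pairs, and Krt14 lies at 0.74 in pair 323 and -3.77 in pair 307.

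Over the 10 tumors the 4 simple keratins varied together, with Pearson r from 0.83 (Krt18 with Krt19) to 0.98 (Krt8 with Krt18) and a median of 0.90 over their 6 pairs. The 10 pairs of basal keratins had r from 0.49 (Krt14 with Krt6a) to 0.84 (Krt5 with Krt6a), with a median of 0.69. The 20 pairs of a simple with a basal keratin had a median of 0.71, and Krt17 reached 0.93 to 0.95 with each simple keratin against at most 0.78 with a basal one. These are descriptions over 10 tumors that are assumed to share the reference and that hold 8 origins. The genes outside the members most like Krt18, by Pearson r over 10 tumors among 14357 genes well above background on at least 8 arrays, were Large2 (0.990), Grb7 (0.988), 0610040J01Rik (0.986) and Rassf7 (0.986). Those most like Krt14 were Efs (0.928), Tmem79 (0.918), Wfdc18 (0.899) and Tspan2 (0.896).

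Other keratins gave a mixed picture, from differences near 0 to some larger than those of the basal members. None of the 15 passed over 10 tumors, 4 had a lower mean at an unadjusted p below 0.05 by limma (4.25% of all probes did) and 0 a higher one, and their median difference was -0.64, against a median of -0.0017 over all probes. The largest difference upward was that of Krt4 (0.06) and the largest downward that of Krt23 (-2.41). Krt13, a keratin of mucosal epithelium, passed without tumor 470 (-3.00, limma adjusted p 0.0228), where 0.692% of all probes passed with the lower mean. Its ratios were -2.52 to 0.05 in sarcomatoid tumors and 1.21 to 2.64 in adenocarcinomas apart from tumor 470 (-2.71). Of 16 hair keratins with a probe, of 20 listed, 4 reached the unadjusted level and Krt27 passed without tumor 470 (-3.41, limma adjusted p 0.0188). The near-identical neighbors Krt16 and Krt6b had their highest ratios in tumor 105 (5.35 and 4.70), as did Krt14, Krt17 and Krt6a.

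Proteins that tie keratin filaments to desmosomes and hemidesmosomes were counted next. None of 10 passed over 10 tumors, 5 had a lower mean at the unadjusted level, against 4.25% of all probes, and the median was -1.34, with Dst, a hemidesmosomal linker, highest (1.04) and Dsp lowest (-3.53). Without tumor 470, Dsp, the desmoplakin that anchors keratin at the desmosome, fell by 4.74 on the log2 scale (limma adjusted p 0.0286), and Pkp3, a desmosomal plakophilin, fell by 3.17 (limma adjusted p 0.0249). The share of all probes that passed with the lower mean was then 0.692%. Calls without tumor 470 in this and the other lists carry the limits given above. Dsp stood at -2.74 to 1.65 in sarcomatoid tumors, at 3.85 to 5.73 in 4 adenocarcinomas and at -1.44 in tumor 470. Among 10 luminal and epithelial regulators 3 were lower and 1 higher at the unadjusted level, from 1.38 for Esr1, the estrogen receptor, to -3.07 for Grhl2, and Elf3, an epithelial ETS factor, passed without tumor 470 (-2.14, limma adjusted p 0.0177). Among 7 basal regulators 3 were lower, from 1.91 for Snai2 to -1.98 for Itgb4, and Itga6, the laminin receptor chain of basal cells (-1.98, limma adjusted p 0.0228), and Sox10 (-2.64, limma adjusted p 0.0454) passed without it. Trp63, the p63 factor that promotes Krt5 and Krt14 in stratified epithelium, ranged from -2.22 (323 lung) to 6.02 (105) and differed by -1.53 (limma adjusted p 0.754). Of 6 other intermediate filaments none passed, and Vim, the vimentin of mesenchymal cells, had the largest difference upward (1.49, limma adjusted p 0.494) and Synm the largest downward (-1.65, limma adjusted p 0.652). None of 8 genes of epidermal differentiation, of 9 listed, reached even the unadjusted level, with differences from 0.04 for Sprr1a to -1.30 for Dsg1a. Krt16, Krt6b, Trp63 and, below, Sftpc were chosen for naming after their values were seen.

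Markers of other cell types moved with some of these values. The myeloid markers had higher means in sarcomatoid tumors, with 7 of 8 at an unadjusted p below 0.05 by limma (4.98% of all probes were higher at that level). Without tumor 470, 4 of 8 passed with the higher mean (Itgam, Emr1, Fcer1g and Tyrobp), as did 0.846% of all probes. Their mean ratio was 1.92 to 2.77 in sarcomatoid tumors and -0.06 to 2.15 in adenocarcinomas, with tumor 470 the highest of these. The fibroblast mean was 2.04 in tumor 470 and -2.40 to 0.75 in the other adenocarcinomas. In sarcomatoid tumors it ran from -1.35 (323 lung) to 1.70 (307 lung), and 0 of 7 fibroblast genes reached the unadjusted level between the groups. Skeletal muscle markers were highest in tumors 105 (5.25), 470 (3.60) and 594 (2.89) and at most 1.01 in the others, and the adipocyte mean was highest in the same 3 tumors (6.02, 4.36 and 4.95). Myoepithelial markers had means of -1.71 to 1.03 in sarcomatoid tumors and -1.13 to 0.90 in adenocarcinomas, with 0 of 6 at the unadjusted level. In the lung comparison 3 of 6 were lower at it, against 5.1% of all probes. So were 4 of 10 luminal and epithelial regulators and 2 of 15 other keratins. Lung epithelium markers had means of 0.06 (323 lung) and 0.83 (307 lung) against -0.21 to 0.69 in mammary sarcomatoid tumors. Sftpc, the surfactant protein of alveolar cells, stood at -0.01 and 2.48 in these lung tumors. It was also at 1.98 (105) and 2.09 (85) in mammary adenocarcinomas, and was well above background in red on 4 of 10 arrays. The largest differences of lung minus mammary tumors in this list were 1.55 for Scgb3a1 and -2.06 for Sftpd. At the unadjusted level 0 of 10 markers were lower and 1 was higher, both between the groups and in the lung comparison. The endothelial mean was 2.09 to 3.94 and 2.38 to 4.07. The part of these cells in the keratin values was not tested.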

How the data were processed

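RNA of 10 mouse tumors was measured on 2-color Agilent arrays, 1 array per tumor. The authors deposited a normalized table whose values are log2 ratios. Their methods name limma and give no steps. The table has 42515 rows, and after leaving out 134 rows of control spots and averaging repeated rows it held 40196 of the 41174 probes on the array. Column medians were -0.0515 to 0.0669, and upper quartiles were 0.259 to 0.326 in scan protocol 2 and 0.511 to 0.648 in the others, so the spread differed by scan protocol. That the scale is log2 was read from its fit to the scanner ratios, and the centring is unstated.

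Per the file headers the scanner files hold the intensity of each spot in both channels, from Feature Extraction, with a log10 ratio. These were used for the channel signals, the background flags and alternatives, among them limma's normexp correction (offset 50) with loess. The number of arrays limits the precision, and no member spot was saturated.

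limma 3.58.1 (R 4.3.3) was fitted over all probes with group as the only term. Tests were two-sided, p-values were adjusted over all probes after Benjamini-Hochberg, and 0.05 was the threshold. Lung and mammary sarcomatoid tumors were compared in a fit with 3 groups. Single probes were also compared by exact permutation tests. P-values measure the spread between these arrays, among which each lung tumor shares its origin with a mammary tumor. In the lung comparison the adenocarcinomas add to that spread. The fits were tested on simulated data. Probes were named by accession (22690), symbol (6433) or synonym (3033) through the gene table of GRCm38.p6, and 8040 stayed unnamed.

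The members, the 14 gene lists and the tests were chosen with earlier results of these data known. All members were named with all probes. Of the keratin, linker, regulator, filament and epidermal lists counts were given, with up to 4 genes past the threshold or else the largest difference each way. For markers of other cell types means were given, with counts for some lists. For Krt18 and Krt14 the 4 genes of the highest correlation were named. Alternatives were other values and scalings, a filter on dim probes (well above background on 5 of 10 arrays), the scan protocol, slide or tumor number in the fit, mammary tumors alone and each array left out. Red or green alone, and fits without tumor 470 that allow for shared origins or the scan protocol, were added after the data had been seen.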

Additional observations from a re-analysis of the deposited data

Results flagged for a closer look

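Among the adenocarcinomas, tumor 470 was far from the other 4 in Krt7 (-1.63 and -1.86 by its 2 probes), Krt8 (-4.58 and -4.08), Krt18 (-4.22) and the mean of the simple keratins (-3.50). Sarcomatoid tumor 307 lung was far from the others of its group in Krt14 (-1.60), and tumor 594 in Krt6a (2.08). In all, 28 sets of 5 tumors were searched for such a tumor, and chance gives about 1.4 if the sets are independent. They share tumors, genes and class means, so the number found cannot be set against that value. With scanner ratios after loess the Krt6a value of tumor 594 was 0.77. The Krt6a probe was well above background in green on 3 of 10 arrays.

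The lung tumor differed from the mammary tumor in opposite directions in the pairs for Krt14 (0.74 in pair 323, -3.77 in pair 307) and for Krt6a (-0.29 and 0.13). These differences between the pairs were not tested, and the Krt6a probe was not well above background in either lung tumor.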

How the results depend on the processing

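Between sarcomatoid carcinoma and adenocarcinoma, 0 probes passed limma's test over all tumors (3709 at an unadjusted p below 0.05), and each array left out in turn gave 0 to 618, the highest without adenocarcinoma 470. With 1 value per tumor number 2 probes passed, and under the other settings over all tumors 0 did. Without tumor 470, in settings added after its values had been seen, 500 passed with 1 value per tumor number, 725 with the tumor number as a random block and 457 with the scan protocol as a term. Between lung and mammary sarcomatoid tumors 10 passed. This became 2 with scanner ratios after normexp and loess, 5 with the Feature Extraction log ratio, 3 with processed signals and 6 with the deposited table centred on medians, 22 with the table quantile normalized, 21 in green alone and 0 with the scan protocol as a term, with or without tumor 470. Over sarcomatoid arrays alone 0 passed (5664 unadjusted). With the tumor number as a replicate block over the 2 pairs of arrays 0 passed (5336 unadjusted), and no call on a keratin changed. Each array left out in turn gave 0 to 84. The count was 84 without tumor 470, 0 without tumor 323, 307 or 17, 1 without tumor 594, 105 or 85, and 5 without either lung tumor, where the lone lung array is assumed to vary like the others.

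Simple minus basal keratins differed between the groups by -1.44, by -0.91 to -2.03 with each array left out, by -1.42 with scanner ratios after loess, by 0.035 in red alone and by 1.36 in green alone. For single probes, green alone turned the sign between the groups for Krt8 (0.42 and 0.38), Krt18 (0.83) and Krt19 (0.086). It turned that of lung against mammary tumors for Krt8 (0.0011 and 0.14) and Krt18 (0.17). Krt14 in lung against mammary tumors ranged from -3.48 to 0.55 with each array left out, the positive value without tumor 307 lung. Krt6a turned to 1.11 with the scan protocol as a term and tumor 470 left out. The other alternatives run on the whole comparisons kept every sign of the keratin probes, and calls were gained only without tumor 470. The cause of these shifts was not tested. Dim signal limits Krt6a in both channels. It limits Krt5 in red in tumor 307 lung and in green on some arrays.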
